A study of Mus musculus with 32 samples.

Results

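The Iroquois genes Irx1, Irx2, Irx3, Irx4, Irx5 and Irx6 encode homeodomain transcription factors, and their MeDIP-seq signal was followed through brain, heart, kidney and liver of mice. They were chosen by symbol from a table of 27179 genes, with the liver read counts of Irx2 and Irx5 already in view, and all 6 were present. MeDIP-seq pulls down DNA fragments with an antibody against 5-methylcytosine (5mC) and sequences them, so a higher value means more precipitated reads on a gene. Organs were flash frozen, or went through 10% formalin into paraffin blocks (FFPE). The labels list 32 samples in 16 groups of 2, by organ, preservation and library type (5mC antibody or unselected Input). The sources used here do not state the strain, genotype, age or number of mice. The table has 1 column per organ and preservation, 8 in all. Each is called a library here, although it could also pool replicates, which the sources do not state. Its headings do not name the antibody either, and reading the values as 5mC rests on the table's name, which calls them MeDIP-seq counts. Input was not analysed here, so a value also holds copy number and how well a stretch of DNA yields reads.

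Iroquois proteins belong to the TALE class of homeodomain factors, in which extra residues lengthen the homeodomain. The mouse genes lie in clusters that arose by duplication: IrxA holds Irx1, Irx2 and Irx4, and IrxB holds Irx3, Irx5 and Irx6. By descent Irx1 pairs with Irx3, Irx2 with Irx5 and Irx4 with Irx6. They pattern the neural tube, the heart ventricle and the nephron, and liver is not among the organs they are best known for. Genes of this kind carry CpG-rich promoters that are held silent by Polycomb proteins in many tissues, and DNA methylation is usually low there and higher in the surrounding DNA.

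Recovered reads on the 27179 genes numbered 2164158 to 3699218 per library, and the median gene had 36 to 63. A single read was worth 0.292 to 0.473 CPM (counts scaled to library size, deposited on the log2 scale). One library, frozen kidney, stood apart, with 0 reads on 2999 genes against 880 to 2380 in the others. As a check of the organ labels by DNA signal, the liver genes Alb, Apob and Fga had their lowest values in both liver libraries. Myh6, a heart muscle myosin, was lower in heart than in kidney (kidney minus heart 0.85 ± 0.16 (SE) on the log2 scale, limma adjusted p = 0.0123). Tubb3, a neuronal tubulin, was lower in brain than in kidney (kidney minus brain 1.33 ± 0.18, limma adjusted p = 0.000477). The kidney genes Umod, Slc12a1 and Cdh16 passed no test. Since reads on a gene did not follow its whole length (84529 on Ttn, with 278578 bases, against 1046 on Dmd, with 2390387 bases, over the 8 libraries) and exon lengths were not used here, levels are compared between libraries and not between Iroquois genes.

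Liver held almost no signal on Irx2 and Irx5, little on Irx6 and Irx1, and a level near or above that of the other organs on Irx3 and Irx4. Each cluster thus had a member almost without liver signal (Irx2, Irx5) and another that kept it (Irx4, Irx3). These genes were chosen with the liver values in view, so the liver values are given as a description with no test. Both liver libraries lay below all 6 others for 4 of the 6 genes (Irx2, Irx3, Irx5 and Irx6) and above all 6 others for Irx4. A filter (1 CPM or more in 2 or more libraries) left 25982 genes, including all 6 Iroquois genes, and of these 10.3% lay below and 11.7% above in this way. The margin was narrow for Irx3, which overlapped after quantile normalization and after centring libraries on their medians. The other 4 calls were the same under both scalings. As in any bulk tissue, a different mix of cells and a different methylation within a cell cannot be told apart.

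**Figure D1:**
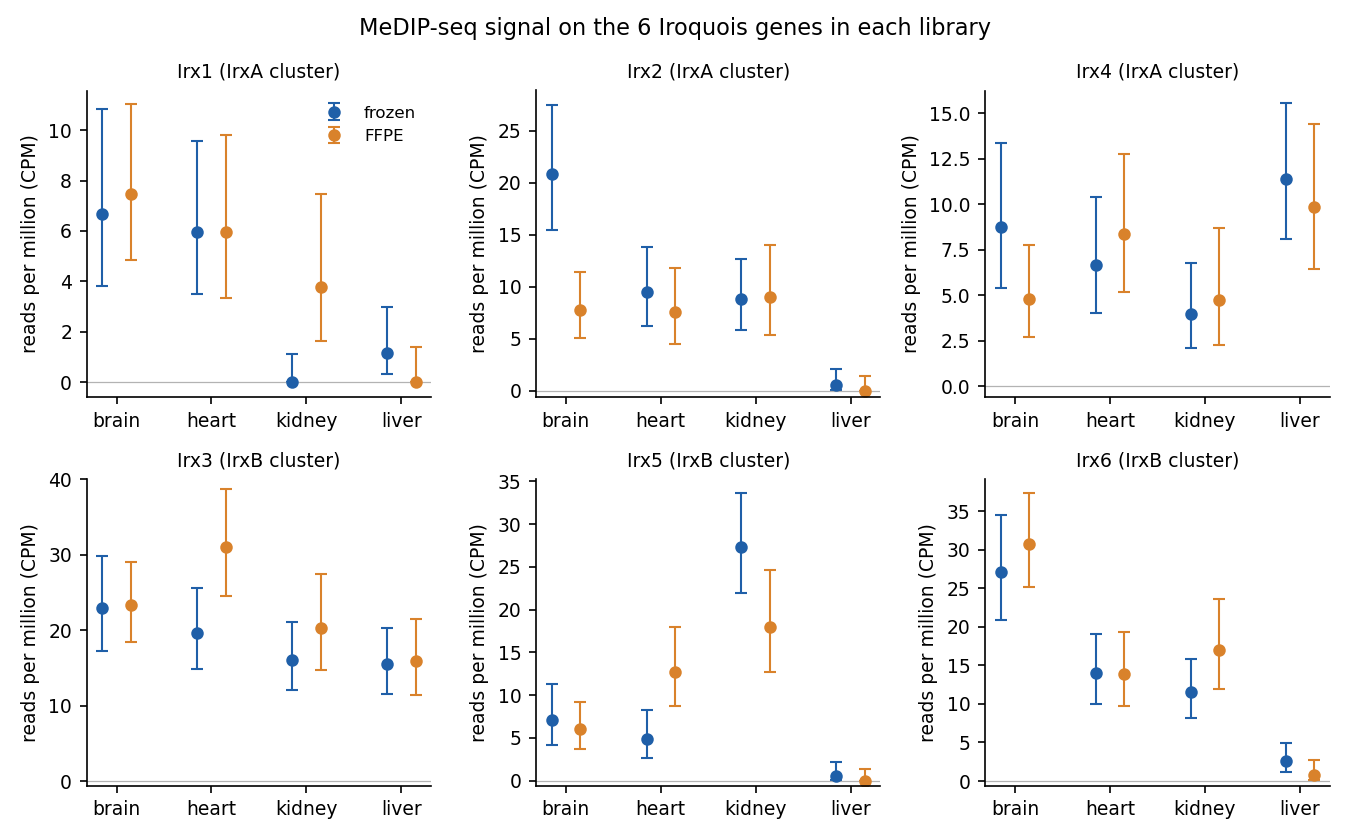
CPM (vertical axis) on each Iroquois gene in brain, heart, kidney and liver, for frozen (blue) and FFPE (orange) tissue. Each point is 1 library and each bar its exact 95% interval for counting error only. Irx2, Irx5 and Irx6 are lowest in both liver libraries by a wide gap. Irx3 is lowest there by a narrow margin, and Irx4 is highest there.

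Irx2 (Entrez 16372), a factor of IrxA expressed in developing heart, brain and kidney, had 50 reads in frozen and 26 in FFPE brain, 27 and 19 in heart, 29 and 19 in kidney, and 2 and 0 in liver. Only the liver libraries were near empty, and the 6 others ranged from 7.54 to 20.8 CPM. Over pooled reads, the other organs held 10.3 CPM and liver 0.330 CPM, a ratio of 31.2 with an exact 95% interval of 8.50 to 260. That interval covers counting error only, as PCR copies are not independent molecules. Within frozen tissue the ratio was 21.2 (5.74 to 178). In FFPE tissue liver had 0 reads. The other FFPE organs were 7.06-fold above a liver floor of 3 reads (1.14 CPM), and the exact 95% interval of the ratio began at 5.57. The gene spans chromosome 13, 72624430 to 72634196 (GRCm38.p6), and the long non-coding RNA gene Gm20554 overlaps it. How reads in that overlap were counted is not given. Gm20554 itself had 27 and 23 reads in frozen and FFPE liver, against 15 to 115 elsewhere.

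Irx5 (Entrez 54352; chromosome 8, 92357796 to 92361456), the relative of Irx2 in IrxB, shapes the gradient of repolarization across the ventricle wall by repressing the potassium channel gene Kcnd2. It had 17 reads in frozen and 20 in FFPE brain, 14 and 32 in heart, 90 and 38 in kidney, and again 2 and 0 in liver. Liver was lowest, and both kidney libraries lay above all others at 27.3 and 18.0 CPM. Pooled signal was 12.8 CPM outside liver and 0.330 CPM in liver, a ratio of 38.7 (exact 95% interval 10.6 to 322). Within frozen tissue the ratio was 24.2 (6.57 to 203). In FFPE tissue the other organs were 9.92-fold above the liver floor of 3 reads, and the exact 95% interval of the ratio began at 7.90.

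Irx6 (Entrez 64379; chromosome 8, 92674289 to 92680956), known for its part in retinal bipolar neurons, had 65 reads in frozen and 103 in FFPE brain, 40 and 35 in heart, 38 and 36 in kidney, and 9 and 2 in liver. Brain stood above all other libraries at 27.1 and 30.8 CPM, heart and kidney overlapped between 11.5 and 17.0 CPM, and liver was lowest at 2.63 and 0.758 CPM. The other organs held 10.6 times the pooled liver signal (5.83 to 21.4).

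Irx1 (Entrez 16371; chromosome 13, 71958232 to 71963723), a factor of the nephron's intermediate segment, had 16 reads in frozen and 25 in FFPE brain, 17 and 15 in heart, 0 and 8 in kidney, and 4 and 0 in liver. Liver and kidney overlapped, because the frozen kidney library was also at 0 reads, with an exact 95% interval up to 1.12 CPM. The other organs held 7.43 times the pooled liver signal (2.79 to 27.9). The fitted difference of liver from the mean of the other 3 organs was -2.71 ± 1.10 (SE, log2), and 1 library decided its size: it was -0.50 without FFPE liver and -4.92 without frozen liver. Without frozen kidney it was -3.64.

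Irx3 (Entrez 16373; chromosome 8, 91798511 to 91801654), a patterning factor of the neural tube and of the ventricular conduction system, kept its signal in every organ. It had 55 reads in frozen and 78 in FFPE brain, 56 and 78 in heart, 53 and 43 in kidney, and 53 and 42 in liver. The values ran from 15.5 CPM in frozen liver to 31.0 CPM in FFPE heart, and the closest liver and kidney libraries differed by less than 1 read is worth (15.9 CPM in FFPE liver, 16.1 CPM in frozen kidney). The other organs held 1.40 times the pooled liver signal (1.12 to 1.78). The ratio was 1.57 (1.12 to 2.24) within FFPE and 1.24 (0.905 to 1.72) within frozen tissue, where the interval includes 1.

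Irx4 (Entrez 50916; chromosome 13, 73259589 to 73269622), which sets ventricular identity in heart muscle, had its highest values in liver. It had 21 reads in frozen and 16 in FFPE brain, 19 and 21 in heart, 13 and 10 in kidney, and 39 and 26 in liver. The liver libraries, at 11.4 and 9.85 CPM, lay above all others, and brain and heart overlapped. Liver held 1.77 times the pooled signal of the other organs (1.28 to 2.44). The ratio was 1.84 (1.18 to 2.83) within frozen and 1.67 (0.994 to 2.76) within FFPE tissue, where the interval includes 1.

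Promoter sequences show how many CpG sites, the usual place of 5mC in these tissues, lie just before a transcript start of a gene with almost no signal in liver (Irx2) and of genes that kept theirs (Irx4 and Irx3). Only these 3 members had a promoter sequence in the set used, so Irx1, Irx5 and Irx6 are not shown. The windows are the 250 bases before the transcript start that the RefSeq table (GRCm38.p6) uses for each gene, 5′ to 3′ on the gene's strand, with CpG in capitals. For Irx2 and Irx4 that start lies inside the gene's whole span given above, so their windows are within the span, and the Irx3 window is outside it. They are chr13:72628570-72628819 on the plus strand, chr13:73260247-73260496 on the plus strand and chr8:91801655-91801904 on the minus strand.
Irx2: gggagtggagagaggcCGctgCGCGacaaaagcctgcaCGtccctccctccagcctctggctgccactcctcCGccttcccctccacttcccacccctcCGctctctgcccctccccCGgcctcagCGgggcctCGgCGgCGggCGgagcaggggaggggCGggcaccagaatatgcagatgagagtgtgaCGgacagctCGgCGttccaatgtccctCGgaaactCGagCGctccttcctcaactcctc
Irx4: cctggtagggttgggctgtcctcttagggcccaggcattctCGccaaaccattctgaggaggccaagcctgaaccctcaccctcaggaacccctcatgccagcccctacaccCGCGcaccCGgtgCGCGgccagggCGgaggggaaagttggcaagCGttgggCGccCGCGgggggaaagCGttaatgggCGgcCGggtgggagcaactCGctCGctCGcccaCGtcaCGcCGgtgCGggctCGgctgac
Irx3: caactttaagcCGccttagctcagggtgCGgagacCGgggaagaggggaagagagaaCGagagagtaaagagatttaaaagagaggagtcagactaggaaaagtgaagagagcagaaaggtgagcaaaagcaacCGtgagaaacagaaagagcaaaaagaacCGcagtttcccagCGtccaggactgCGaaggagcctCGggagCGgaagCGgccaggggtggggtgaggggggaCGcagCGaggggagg
The Irx2 window holds 19 CpG and 68.4% G and C, the Irx4 window 22 CpG and 68.8%, and the Irx3 window 13 CpG and 56.0%. Over 32851 such windows the median is 6 CpG, and 19.7%, 14.8% and 31.5% of them hold at least as many as Irx2, Irx4 and Irx3. Irx2, near empty in liver, and Irx4, highest in liver, had similar numbers, and Irx3 had fewer. A relation of CpG number to liver signal was not tested. The deposited values are per gene, so they do not show where on a gene the reads fell. ACANNTGT, the palindromic site that Iroquois proteins bind, is in none of the 3 windows on either strand, against 6.31% of all windows.

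**Figure D2:**
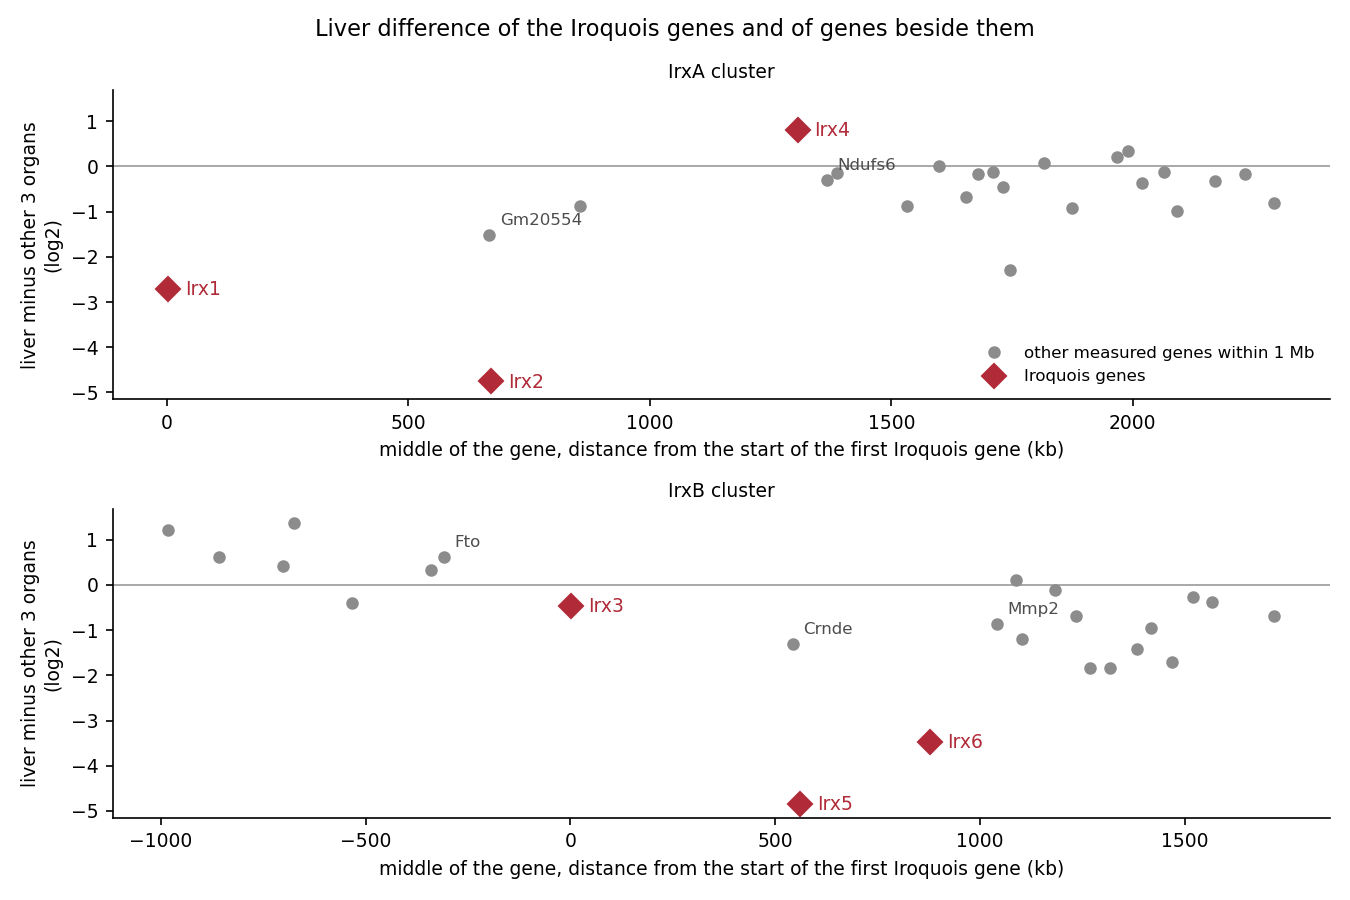
Liver minus the mean of the other 3 organs (vertical axis, log2, from the additive fit) against distance from the first Iroquois gene of each cluster in kb. Red diamonds are Iroquois genes and grey points other measured genes within 1 Mb. Irx2, Irx5 and Irx6 lie well below every grey point of their panel. Irx1 (-2.71 ± 1.10, SE) lies below the lowest grey point of its panel (-2.29) by less than its error. Irx3 and Irx4 lie among or above the grey points.

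Position within the clusters is shown in the map of liver differences. IrxA spans 1311 kb and IrxB 882 kb, and 313 to 661 kb separate neighbouring members. In the fit, liver minus the other organs was -4.76 ± 0.64 (SE, log2) for Irx2, -4.84 ± 0.68 for Irx5, -3.47 ± 0.47 for Irx6, -0.47 ± 0.28 for Irx3 and 0.81 ± 0.50 for Irx4. These values depend on the 0.5 reads added to each count for Irx2 and Irx5, which became -3.50 and -3.59 with 2 reads added. Irx1, at -2.71 ± 1.10, became -1.95 with 2 reads added and -2.15 under quantile normalization. Within 1 Mb of IrxA, 3 of 21 tested genes lay below in both liver libraries and 0 above, with a median of -0.32. Near IrxB 7 of 21 lay below and 3 above, with a median of -0.39. Of all tested genes 10.3% lay below and 11.7% above, and their median was -0.10. Crnde, a non-coding RNA gene 1.68 kb from Irx5, was at -1.32, with 48 and 10 reads in frozen and FFPE liver. Fto, whose introns hold enhancers that act on Irx3, lay on the other side at 0.61 and above all other organs in both liver libraries. Mmp2, a matrix protease gene beyond Irx6, was at -0.87.

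**Figure D3:**
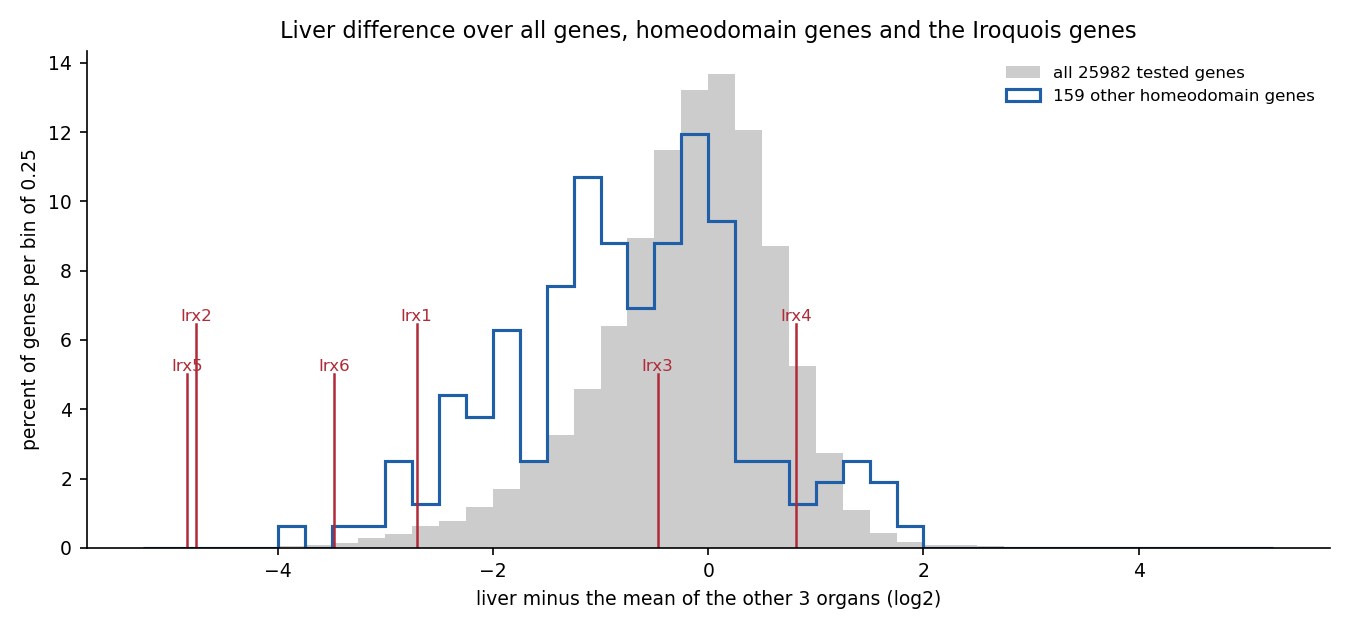
Percent of genes (vertical axis) in bins of 0.25 of the liver minus other organs difference (log2), for all 25982 tested genes (grey) and for 159 other homeodomain genes (blue). Red lines mark the Iroquois genes; Irx2 and Irx5 lie left of every other homeodomain gene, whose lowest value was -3.85.

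Other homeodomain genes were set beside the family. Of 166 found in the table, 159 passed the filter on low values, so counts over them leave out genes with little signal everywhere. Both liver libraries lay below all others for 21 and above for 3, with a median difference of -0.72. Of all tested genes 10.3% lay below and 11.7% above. The TALE genes other than Irx (Mkx, Meis, Pbx, Pknox and Tgif) differed less, from -1.86 to 0.75 with a median of -0.41. Among these 12, Pknox2 lay below and Pbx3 and Mkx above all other organs in both liver libraries. Irx5 had rank 3 and Irx2 rank 6 from the lowest of all 25982 tested genes, which describes the choice and tests nothing. No difference between the Iroquois genes and other homeodomain genes was tested.

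Among brain, heart and kidney, none of the 6 genes passed the test in any pair of organs. These differences do not use the liver levels, although the error of the fit draws on all 8 libraries. They were tested by limma in an additive fit of organ and preservation with Benjamini-Hochberg adjustment over all 25982 genes. With 1 library per group, a gene's own error is the change of an organ difference between preservations. The error used is mostly borrowed from all genes at a similar signal level (13.1 prior against 3 residual degrees of freedom). For kidney against brain 0 of 6 were called, where 16.1% of all genes were. Heart against brain called 0 of 6, beside 1.71% of all genes, and kidney against heart 0 of 6, beside 2.47%. At an unadjusted p under 0.05 Irx1 passed for kidney against brain and for kidney against heart.

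For Irx1 the fitted kidney differences were -3.21 ± 1.35 (SE, log2) against brain (limma adjusted p = 0.112) and -2.98 ± 1.35 against heart (limma adjusted p = 0.257). Both rested on the frozen kidney library and its 0 reads: without it they were -0.41 and -0.17. They were -2.20 and -1.99 with 2 reads added in place of 0.5, and -1.78 and -1.88 under quantile normalization. Without FFPE kidney they were -6.02 (limma adjusted p = 0.0012) and -5.78 (limma adjusted p = 0.0031), but the kidney arm is then 1 library with 0 reads, whose size is set by the 0.5 reads added and which is assumed to vary like the other groups. The Irx5 values in kidney had the opposite sign, at 1.74 ± 0.83 against brain (limma adjusted p = 0.155) and 1.46 ± 0.83 against heart (limma adjusted p = 0.375). Single heart libraries decided the value against heart, which was 0.33 without frozen heart and 2.60 without FFPE heart. Its kidney libraries lay above the 6 others, as did 3.53% of all tested genes, and this held under both other scalings. Irx6 differed from brain by -1.04 ± 0.57 for heart (limma adjusted p = 0.362) and -1.03 ± 0.57 for kidney (limma adjusted p = 0.223). Irx6 and Irx1 had both brain libraries above the 6 others, as did 16.5% of all genes, although Irx1 overlapped under quantile normalization. Irx2, Irx3 and Irx4 differed by at most 0.76 on the log2 scale in these 3 pairs, with errors of 0.35 to 0.78. The order of organ means was brain, kidney, heart and liver for Irx2 and Irx6, brain, heart, kidney and liver for Irx1, heart, brain, kidney and liver for Irx3, kidney, heart, brain and liver for Irx5, and liver, heart, brain and kidney for Irx4. Among organs next to each other in this order, brain overlapped with kidney and kidney with heart for Irx2, kidney with heart for Irx6, heart with brain for Irx3, Irx4 and Irx5, and kidney with liver for Irx1. For Irx3, kidney (16.1 to 20.3 CPM) also overlapped heart (19.7 to 31.0 CPM). For Irx2, brain (7.77 to 20.8 CPM) also overlapped heart (7.54 to 9.48 CPM).

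Genes in neural patterning, nephron segment, heart and homeodomain lists passed the kidney against brain test at varied rates. Only the heart list was drawn up as partners and targets of Iroquois factors. In the neural patterning list 6 of 15 were lower in kidney and 0 higher, among them Six3 (-2.75 ± 0.70 on the log2 scale, limma adjusted p = 0.0166), a forebrain factor, and Dbx1 (-3.77), of the neural tube. From the list of nephron segment genes 2 of 14 were higher and 1 lower, with Osr2 at 4.54 ± 0.85 (limma adjusted p = 0.00325), Lhx1 at 1.98 and Emx2 at -4.56. Among heart partners and targets 1 of 15 was higher and 1 lower: Kcnd2, the channel gene that Irx5 represses, at 0.83 ± 0.20 (limma adjusted p = 0.013), and Gata4 at -1.29. Tgif1 was the single called TALE gene of 12, at -2.74. The other homeodomain genes, which include several of these, had 27 higher and 17 lower of 159, with the Hox genes Hoxd3 and Hoxd4 higher by 5.15 and 5.38. Over all genes 9.65% were higher and 6.41% lower. The neural count rested on single libraries: 0 were lower without frozen brain, without FFPE brain or without frozen kidney, 1 without FFPE heart and 2 without frozen heart, 3 without the filter on low values, and 3 were lower and 1 higher under quantile normalization. Emx2 was no longer called without the filter or without any 1 of the brain and heart libraries, Kcnd2, Gata4 and Tgif1 were not called without frozen brain, and Gata4 was not called without frozen kidney. Without the variance trend none of the listed genes was called for kidney against brain, as was the case for all genes. Without frozen kidney the other homeodomain genes had 18 higher and 12 lower, without frozen brain 14 and 2, and without FFPE brain 17 and 2. The other homeodomain genes had 16 higher and 1 lower for kidney against heart, and 2 higher and 4 lower for heart against brain. The 4 shorter lists had 0 calls in both comparisons as fitted, but neural genes lower in heart than in brain numbered 3 under quantile normalization, 4 without FFPE kidney and 5 without frozen kidney. The other short lists gained calls too. Under quantile normalization, heart against brain had 2 TALE genes lower and 0 higher. It had 1 heart-list gene higher and 0 lower, and 1 nephron gene higher and 1 lower. With centred libraries, kidney against heart had 2 heart-list genes higher and 0 lower. Not every gained or lost call is named: for kidney against brain, fewer nephron genes were called higher without frozen brain. Settings for these list counts were chosen after seeing the data.

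No Iroquois gene passed the test between FFPE and frozen tissue. The comparison of FFPE with frozen over the 4 organs called 0 of 6 Iroquois genes, beside 1.35% of all genes, and none at an unadjusted p under 0.05. The differences were 0.26 ± 0.24 (SE, log2) for Irx3, -0.12 ± 0.44 for Irx4, -0.21 ± 0.41 for Irx6, -0.36 ± 0.58 for Irx5, 0.52 ± 0.96 for Irx1 and -0.91 ± 0.55 for Irx2 (limma adjusted p from 0.599 to 0.957). Changes no larger than these errors could not be detected, and changes well above them could be missed too. In the same fit Irx1 was not called for kidney against brain at -3.21 ± 1.35 (limma adjusted p = 0.112). The other homeodomain genes and the 4 shorter lists had 0 calls as well.

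**Figure D4:**
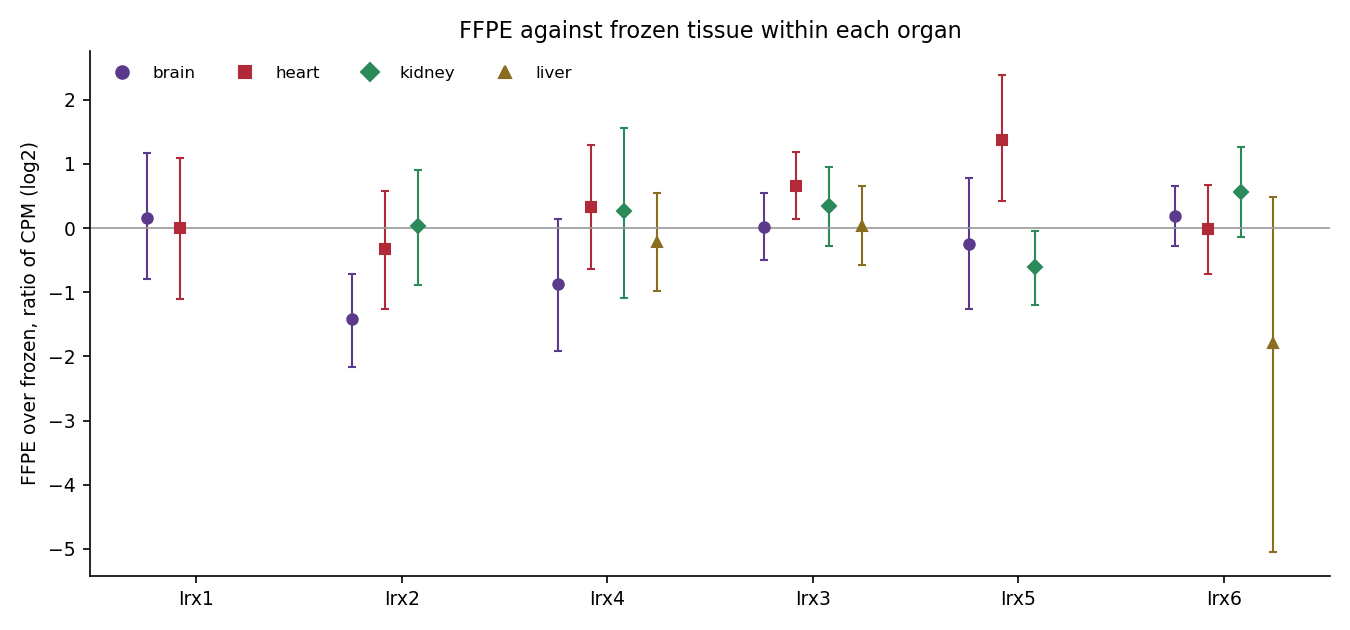
Ratio of FFPE to frozen CPM (vertical axis, log2) for each gene within brain, heart, kidney and liver, with exact 95% intervals for counting error only. Pairs with 0 reads in a library are not drawn; most intervals cross 0, and Irx2 in brain, Irx3 and Irx5 in heart and Irx5 in kidney do not.

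Within single organs, a few FFPE to frozen ratios had 95% counting intervals that excluded 1. These intervals were not adjusted for looking at each gene in each organ, so a few could exclude 1 through counting error alone. Irx2 in brain was at 20.8 CPM in frozen and 7.77 CPM in FFPE tissue, a ratio of 0.373 (exact 95% interval 0.223 to 0.610). Irx3 in heart had an FFPE to frozen ratio of 1.58 (1.10 to 2.26). Irx1 in kidney had 0 reads in frozen and 8 reads (3.78 CPM) in FFPE tissue. These compare 2 libraries, not the preservation methods, since no group has a second column.

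Across the 8 libraries, Irx2 followed Irx6 (Pearson's r of log2 values 0.965) and Irx5 (0.907) most closely, while Irx4 ran against Irx2 (-0.563) and Irx5 (-0.731). These correlations share the liver libraries, where Irx2, Irx5 and Irx6 are lowest, and are given as a description over 8 points. The named genes with the most similar pattern were Spata19, Nubp2 and Ddn for Irx2 (r 0.985, 0.984 and 0.980), Uchl3, Apof and Tmem145 for Irx5 (0.985, 0.979 and 0.977) and Mup22, Olfr722 and Hhipl1 for Irx6 (0.994, 0.985 and 0.985). For Irx1 they were Olfr298, Olfr1104 and Esr2 (0.992, 0.988 and 0.988), for Irx3 Orc4, Asgr1 and Slc2a10 (0.970, 0.970 and 0.953), and for Irx4 Nsmce1, Neurog3 and Acmsd (0.978, 0.941 and 0.938). An r over 0.9 was found in 395 tested genes for Irx1, 347 for Irx2, 33 for Irx3, 16 for Irx4, 112 for Irx5 and 445 for Irx6.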

How the data were processed

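MeDIP-seq of mouse brain, heart, kidney and liver, frozen and FFPE, was processed by the authors with Bowtie2, featureCounts and limma on mm10, per the submitters' processing notes. Versions, strand, the counted feature and the treatment of multiply matching reads were not given in the sources used here. Deposited values are log2 of reads per gene plus 0.5, scaled by the authors to library size (CPM). All values stepped back to whole reads (tolerance 1e-04), and these recovered reads gave the depths, CPM, exact Clopper-Pearson 95% intervals and floors of 3 reads. Genes were placed by Entrez ID on RefSeq (GRCm38.p6), which matched 93.0%.

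The log2 values were fitted in R 4.3.3 with limma 3.58.1 (organ plus preservation, variance trend, 3 residual and 13.1 prior degrees of freedom) for 25982 genes that reached 1 CPM in 2 or more libraries; 1197 were removed. Calls had a Benjamini-Hochberg adjusted p under 0.05. The table holds 1 column per group, so a fit over the labelled replicates was not run, and nothing in the labels ties replicates to separate animals. Members and lists were chosen with earlier results of these data known. Named genes are all members and, from each list, up to 3 called genes with the smallest p per comparison (up to 4 near the clusters, with adjoining genes), leaving out predicted models; Gm20554 was named for its overlap with Irx2, and Pknox2, Pbx3 and Mkx after their values were seen. Alternatives were the filter, scaling, pseudocount, variance trend and leaving out each library.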

Additional observations from a re-analysis of the deposited data

Results flagged for a closer look

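Irx5 went opposite ways between FFPE and frozen tissue in 2 organs. The FFPE to frozen ratio of CPM was 2.59 in heart (exact 95% interval 1.34 to 5.24, 32 against 14 reads) and 0.657 in kidney (0.438 to 0.970, 38 against 90 reads). The intervals cover counting error only, each ratio compares 2 libraries, and the difference between the organs was not tested. The frozen kidney library, which stood apart from the others, is 1 of the 4 libraries involved, and its part in the result was not tested.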

How the results depend on the processing

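No paired analysis was possible because the columns carry no replicate or animal number; the fit itself compares FFPE with frozen within organs. The number of Iroquois genes called stayed at 0 in all 4 comparisons under each alternative, except that leaving out a library gave 0 to 1 for kidney against brain and for kidney against heart (Irx1 without FFPE kidney, at -6.02 and -5.78, against 1 kidney library with 0 reads). The counts over all genes were less steady. FFPE against frozen called 352 genes, 39 without the variance trend and 172 (without frozen heart) to 453 (without FFPE kidney) with a library left out. Heart against brain called 445 genes, 291 without the filter, 1775 under quantile normalization, 700 with libraries centred on their medians, 679 with 2 reads added, 0 without the trend (3571 at an unadjusted p under 0.05) and 1 (without FFPE heart) to 2167 (without frozen kidney) with a library left out. Kidney against brain called 4171, 0 without the trend (6541 unadjusted) and 483 (without frozen brain) to 6926 (without FFPE kidney). Kidney against heart called 643, 1054 with centred libraries, 0 without the trend (3357 unadjusted) and 0 (without frozen heart, by limma) to 3767 (without FFPE kidney). Higher calls made up 60.1% for kidney against brain, 50.3% under quantile normalization and 73.3% with centred libraries; the shares were 69.7%, 56.8% and 80.4% for heart against brain and 86.2%, 70.0% and 89.7% for kidney against heart. Without FFPE kidney they were 47.0% for kidney against brain and 46.1% for kidney against heart. Centring moved the median liver difference of all genes from -0.10 to 0.10. Liver differences of the 6 genes kept their sign under each alternative run for them (the variance trend, which does not alter a fitted difference, was not), from -5.45 to -3.50 for Irx2, -5.90 to -3.59 for Irx5, -4.37 to -2.58 for Irx6, -4.92 to -0.50 for Irx1, -0.62 to -0.27 for Irx3 and 0.65 to 1.23 for Irx4. Low read numbers limit what can be seen: Irx1 had at most 25 reads in a library.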
